A study of Homo sapiens with 9 samples.

Results

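Caveolae are small flask-shaped pits of the plasma membrane. Caveolins, hairpin membrane proteins that gather into oligomers with cholesterol, form their core, cavins lay a peripheral coat over it, and other proteins bend or hold the neck. They buffer membrane tension and take part in endocytosis and signalling, and caveolin-1 is made by astrocytes and by many glioma cells. The 7 genes described here are the caveolins CAV1 and CAV2, the cavins CAVIN1, CAVIN2 and CAVIN3, and the neck proteins EHD2 and PACSIN2. They were taken by function from the platform annotation as every probe set assigned to 1 of these genes alone, which gave 17 of 54675 probe sets. Of these, 13 were bright enough to be tested, and they covered 5 of the 7 genes, out of 12505 genes tested in all. The set was assembled around CAV2, whose signal was already known to be higher with both miRNA forms than in control cells, and around CAV1, already known to differ between the forms. The set was thus selected on those differences, which are given as a description and without a test.

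The cells were SW1783, an established human glioma line, and RNA was measured on Affymetrix arrays 24 h after transfection with 50 nM of a miRNA duplex in Lipofectamine RNAiMAX. The 3 groups were miR-376a*A (the A form), miR-376a*G (the G form) and a control miRNA, with 3 arrays each, which the labels call biological replicates. In the A form the edited position holds adenosine, as in the unedited miRNA, and in the G form it holds guanosine, which pairs as the inosine left by A-to-I editing does. All groups, the control included, received a duplex and the transfection reagent, and the line stands for 1 tumour. No group of untransfected cells was analysed here. The question for these genes was whether either form changed their transcripts against the control transfection, and whether the forms differed.

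The miRNA arm from which both forms derive, taken by its name, is shown with its seed, the stretch that pairs with target transcripts. RefSeq places the arm now named hsa-miR-376a-5p at chr14:101040788-101040809 on the plus strand of GRCh38.p14, in the gene MIR376A1, and capitals mark its seed, bases 2 to 8.
hsa-miR-376a-5p: gUAGAUUCuccuucuaugagua
The labels give neither the duplex sequences nor the position of the edited base, so no base is marked and where the forms differ is not stated. RefSeq also lists the arm hsa-miR-376a-2-5p, in the gene MIR376A2, with another seed.

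The deposited values are linear signal intensities, with an array median of 18.8 to 24.0. Control replicate 1 stood apart from the other arrays: its highest rank correlation with any other was 0.941, against 0.969 or 0.970 for each of the other 8 arrays, and its highest signal was 7191, against at most 4374. Some of the results that rest on the control group, though not all, are therefore also given without it. Signals were turned into log2(signal + 16) and quantile normalized, and differences below are on that log2 scale, which understates changes of dim genes. Of 9 glial and astrocytoma markers 4 passed the brightness filter. VIM and CD44 were bright (mean signals of 2416, 2422 and 2989, and of 2256, 2202 and 2454, with the A form, the G form and control). SLC1A3 averaged 112, 111 and 108 in that order, and SOX2, close to the filter, 19.8, 18.8 and 24.7. The astrocyte markers GFAP and S100B averaged at most 2.50 in any group, and NES, OLIG2 and AQP4 did not pass either. The summed signal of the 9 markers was 4553 to 5193 with the A form, 4518 to 4981 with the G form and 4562 to 7694 in control. Of 11 measured markers of other cell types 6 passed, with summed signals of 2179 to 2366, 1961 to 2244 and 1886 to 2696 in the same order of groups, namely KRT18, KRT8, PECAM1, RBFOX3, SYT1 and SNAP25. The epithelial keratin KRT18 was bright, with means of 1162, 1292 and 1298 in that order, and the endothelial PECAM1 averaged 76.7, 60.9 and 91.7, while EPCAM, CDH5 and PTPRC, which define epithelial, endothelial and blood cells, averaged under 11 in every group. Of the neuronal markers, SNAP25, a neuronal vesicle fusion protein, rose with the A form by 1.12 (limma adjusted p = 0.00211) and with the G form by 0.94 (limma adjusted p = 0.00474). SYT1, a calcium sensor of synaptic vesicles, fell with the G form by 1.10 (limma adjusted p = 0.00253). With the A form SYT1 was at -0.03 (limma adjusted p = 0.959), and between the forms at 1.07 (limma adjusted p = 0.00328). RBFOX3 was at 0.17 with the A form and 0.00 with the G form (limma adjusted p of 0.662 and 0.992). Over all genes 3.33%, 4.62% and 2.63% passed with the A form, with the G form and between the forms. The part of these neuronal markers in the results below was not tested. In RNA from whole cultures, fewer cells that make a transcript and less of it per cell cannot be told apart.

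CAV2, caveolin-2, joins CAV1 in mixed oligomers and needs it to reach the cell surface. Its brightest probe set, 203323_at, had signals of 1654, 1444 and 1575 with the A form and of 1635, 1442 and 1513 with the G form, against 540, 478 and 494 in control. Every array of either form was above every control array, by a wide margin, and the arrays of the forms were interleaved. The means were 1558 ± 106 with the A form, 1530 ± 97.5 with the G form and 504 ± 32.0 in control (SD, n = 3 each). The difference from control was 1.58 (SE 0.08), or 2.98-fold, with the A form and 1.59 (SE 0.08), or 3.01-fold, with the G form. Both comparisons share the control arrays. In each of them CAV2 held rank 12 from the top among 12505 genes. The difference between the forms was -0.01 for the A form minus the G form, with a 95% interval of -0.20 to 0.17 (limma adjusted p = 0.993). That comparison uses the same arrays of the forms as the differences that chose CAV2, so its p-value is not independent of the choice.

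**Figure D1:**
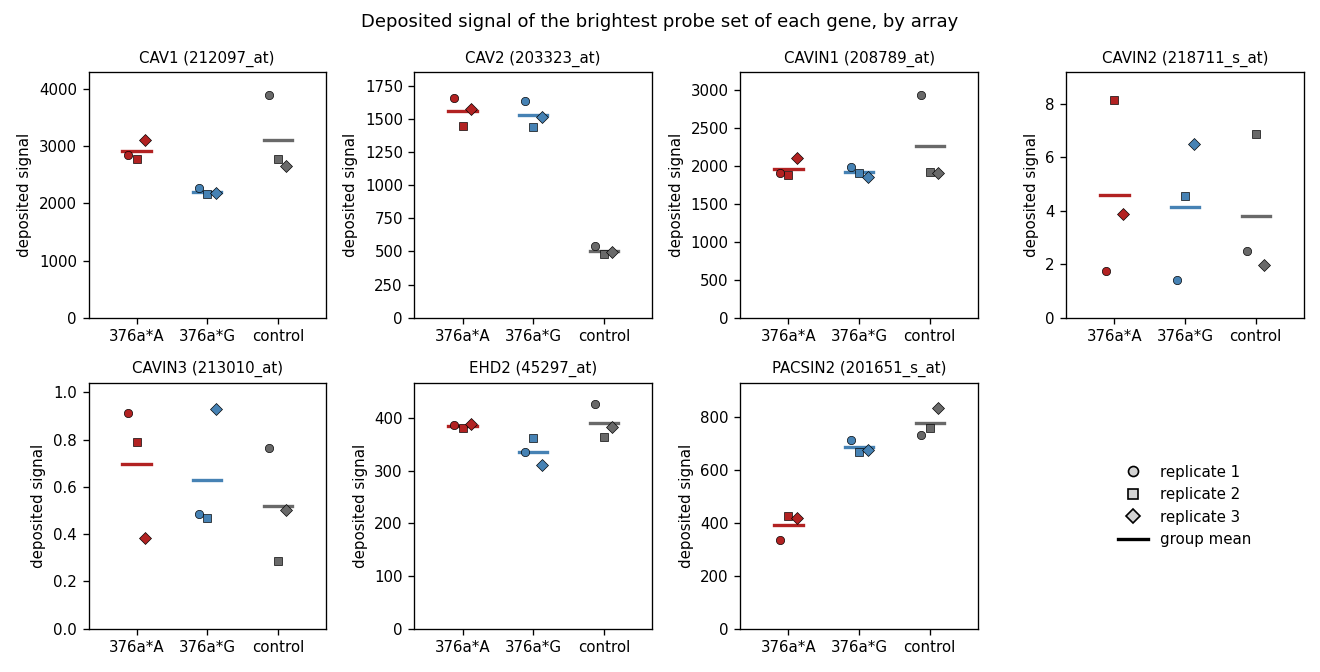
Deposited signal (linear axis from 0) of the brightest probe set of each of the 7 genes on each array, for miR-376a*A, miR-376a*G and control, with symbols for the replicate and a bar for the group mean. CAV2 lies at 1442 to 1654 on the 6 miR-376a* arrays and at 478 to 540 on the controls, PACSIN2 is lowest with miR-376a*A, and CAVIN2 and CAVIN3 stay below 9 and below 1.

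The other probe sets of CAV2 pointed the same way with smaller differences. Probe set 203324_s_at, whose suffix marks probes that match several transcripts, had signals of 1567, 1373 and 1358 with the A form and 1377, 1301 and 1248 with the G form, against 359, 797 and 677 in control. No array of either form overlapped a control array, but the controls themselves were widely spread, with replicate 1 the lowest. Its difference was 1.25 (SE 0.21) with the A form and 1.14 (SE 0.21) with the G form, and without control replicate 1 these were 0.91 and 0.81. On that array 203323_at was the highest of the controls and 203324_s_at the lowest. Without it 203323_at still gave 1.60 with the A form and 1.61 with the G form, and 203324_s_at became the brighter of the pair, at a mean of 10.20 against 10.18 on the log2 scale. The third probe set, 213426_s_at, was dim, with 81.7, 103 and 72.7 with the A form and 73.7, 84.1 and 73.7 with the G form, against 62.0, 36.6 and 63.8 in control. The arrays of the forms overlapped each other but lay above all controls, and the differences from control were 0.58 and 0.46 (SE 0.17 each). The mean over the 3 probe sets gave 1.13 with the A form and 1.06 with the G form, so the size of the CAV2 difference depended on the probe set while its direction did not.

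**Figure D2:**
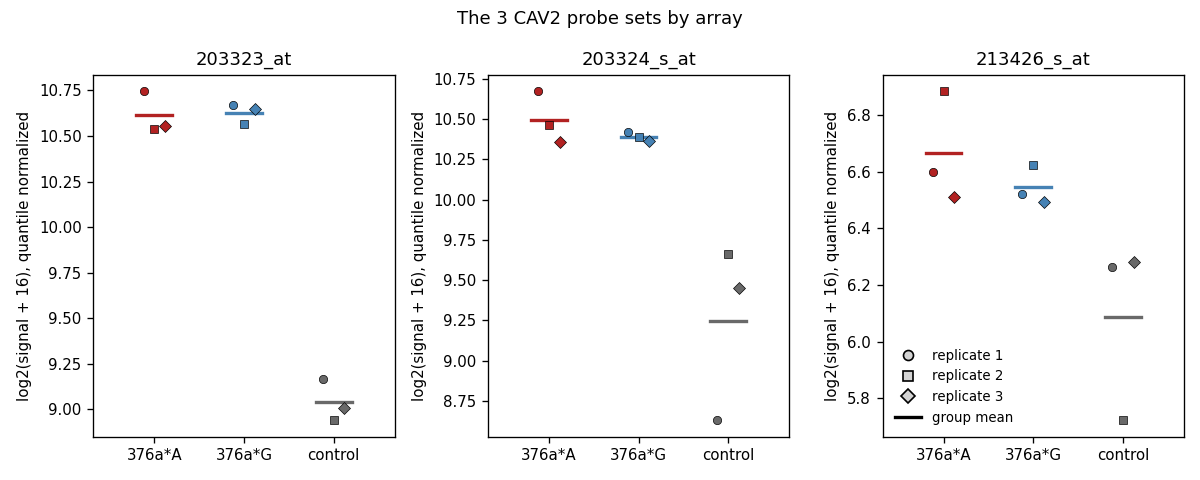
Quantile-normalized log2(signal + 16) of the 3 CAV2 probe sets on each array, for miR-376a*A, miR-376a*G and control, with symbols for the replicate and a bar for the group mean; each panel has its own log2 axis, which does not start at 0. In all 3 panels the 6 miR-376a* arrays lie above the 3 controls, and control replicate 1 is the highest control for 203323_at and the lowest for 203324_s_at.

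CAV1, caveolin-1, is the caveolin that caveolae of most non-muscle cells cannot form without. Probe set 212097_at had signals of 2838, 2772 and 3118 with the A form and 2267, 2166 and 2187 with the G form, against 3888, 2770 and 2653 in control. The G-form arrays were the lowest 3 of the 9, and control replicate 1 was far above the other controls. After normalization that array was the lowest control, at 11.30 against 11.60 and 11.57 on the log2 scale. The difference between the forms was 0.35 (SE 0.07), the A form being 1.27-fold higher than the G form, and it belongs to the choice of the gene. The second probe set, 203065_s_at, gave 0.17 (SE 0.05) for the same difference. The comparisons of CAV1 with control share the arrays of the forms with that difference, so their p-values are not independent of the choice. Against control CAV1 showed 0.07 with the A form, with a 95% interval of -0.09 to 0.23 (limma adjusted p = 0.736). The sign of that value turned under 4 of 19 alternatives: median centring (0.00 after rounding), no normalization between arrays (-0.07), array weights (-0.02) and leaving out control replicate 1 (-0.03). With the G form CAV1 was at -0.28 against control (SE 0.07, limma adjusted p = 0.0553), short of the threshold. Without control replicate 1 the difference was -0.35 (limma adjusted p = 0.000361) and passed, as it did with the mean of both probe sets (-0.21, limma adjusted p = 0.0214) and with array weights. Over 19 alternatives the p ran from 2.64e-05 to 0.197, and CAV1 was lower in all 19. The second probe set on its own was at -0.13 (limma adjusted p = 0.235), and at -0.09 without control replicate 1 (limma adjusted p = 0.269).

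CAVIN1, cavin-1, is the coat protein without which caveolae are lost. Its brightest probe set, 208789_at, had signals of 1904, 1875 and 2102 with the A form and 1979, 1908 and 1845 with the G form, against 2933, 1916 and 1908 in control. All arrays but control replicate 1 lay within 1845 to 2102, and the groups overlapped in deposited signal. After normalization the controls stood apart from the forms, which still overlapped each other. The controls lay at 11.04, 11.002 and 11.07 on the log2 scale, just above all 6 arrays of the forms, at 10.95 to 10.99. On the normalized scale its spread within groups was 0.02 (pooled SD), and 0.0960% of the genes tested had a smaller one. CAVIN1 was at -0.08 with the A form (95% interval -0.18 to 0.01, limma adjusted p = 0.398) and at -0.06 with the G form (95% interval -0.16 to 0.03, limma adjusted p = 0.499). The forms differed by -0.02 (95% interval -0.12 to 0.07, limma adjusted p = 0.976). The other probe sets, 1557938_s_at and 208790_s_at, gave -0.27 and -0.17 with the A form and -0.14 and 0.09 with the G form, none past the threshold (limma adjusted p of 0.331 to 0.796).

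CAVIN2, cavin-2, which helps to curve the membrane, and CAVIN3, cavin-3, which recruits signalling partners and affects how caveolae move, were listed at very low signals. The 2 CAVIN2 probe sets lay between 0.303 and 8.15 on all 9 arrays and fell at percentiles 19.9 and 17.2 of mean brightness. The only CAVIN3 probe set, 213010_at, lay between 0.286 and 0.929, at percentile 0.958. The arrays of all groups overlapped for all 3 probe sets. They were below the brightness filter and were not tested with the others. When no filter was set, their differences against control were between -0.08 and 0.12, with limma adjusted p of 0.745 to 0.959. No detection calls were used here, and a single dim probe set cannot tell a silent gene from a poor probe.

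EHD2, a membrane-bound ATPase that holds caveolae at the cell surface from their neck, had signals at 45297_at of 387, 381 and 388 with the A form and 335, 362 and 311 with the G form, against 426, 364 and 383 in control. The G-form arrays were the lowest 3, by a small margin over 1 control array, and the other groups overlapped. The difference was -0.04 with the A form (95% interval -0.28 to 0.21, limma adjusted p = 0.923) and -0.24 with the G form (95% interval -0.48 to 0.00, limma adjusted p = 0.290). Between the forms it was 0.20 (95% interval -0.04 to 0.44, limma adjusted p = 0.607). The remaining probe sets, 221870_at and 205341_at, gave -0.09 and -0.20 with the G form, neither past the threshold (limma adjusted p of 0.780 and 0.673), and differed in sign with the A form, at 0.07 and -0.32.

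PACSIN2, also called syndapin 2, is an F-BAR protein that binds dynamin and sculpts the neck of caveolae, and it fell with the A form. At 201651_s_at its signals were 334, 426 and 418 with the A form and 715, 667 and 676 with the G form, against 735, 760 and 836 in control. The A-form arrays were clearly below all the others, and the G-form arrays lay just under the controls without overlap. The means were 393 ± 50.8, 686 ± 25.5 and 777 ± 52.4 (SD, n = 3 each) in that order of groups. Against control PACSIN2 fell with the A form by 0.98 (SE 0.11, limma adjusted p = 0.00101), a 1.98-fold difference and rank 45 from the bottom among 12505 genes. It was also lower with the A form than with the G form, by a log2 difference of -0.79 (SE 0.11, limma adjusted p = 0.00354), or 1.73-fold, at rank 83 from the bottom. With the G form the difference from control was -0.19 (95% interval -0.43 to 0.06, limma adjusted p = 0.423). Under 19 other ways of processing or subsetting the arrays, both falls passed in all 19, with limma adjusted p of 1.06e-05 to 0.0155 against control and 2.28e-05 to 0.0280 between the forms. Without control replicate 1 the fall against control was -1.02.

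A second probe set of PACSIN2, 1554691_a_at, had signals of 134, 144 and 142 with the A form and 188, 170 and 174 with the G form, against 263, 214 and 205 in control. The 3 groups did not overlap, with the A form lowest and control highest. It fell with the A form by 0.64 (SE 0.14, limma adjusted p = 0.0405), and its difference without control replicate 1 was -0.50 (limma adjusted p = 0.00573). This call passed under 7 of 18 alternatives, with limma adjusted p of 0.00278 to 0.174, and was lost without any single array of either form, without control replicate 2, with weaker brightness filters, with only the 6 arrays compared and with the replicate block. It was lower in all 18. With the G form it was at -0.34 (limma adjusted p = 0.245), and between the forms at -0.30 (limma adjusted p = 0.567, and 0.0488 without control replicate 1). The third probe set, 233705_at, lay between 10.1 and 18.0 on all arrays, below the filter, with the groups overlapping. It was the brightest of the member probe sets left out, at percentile 42.4, and EHD2's 205341_at was the dimmest of those kept, at percentile 60.3.

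**Figure D3:**
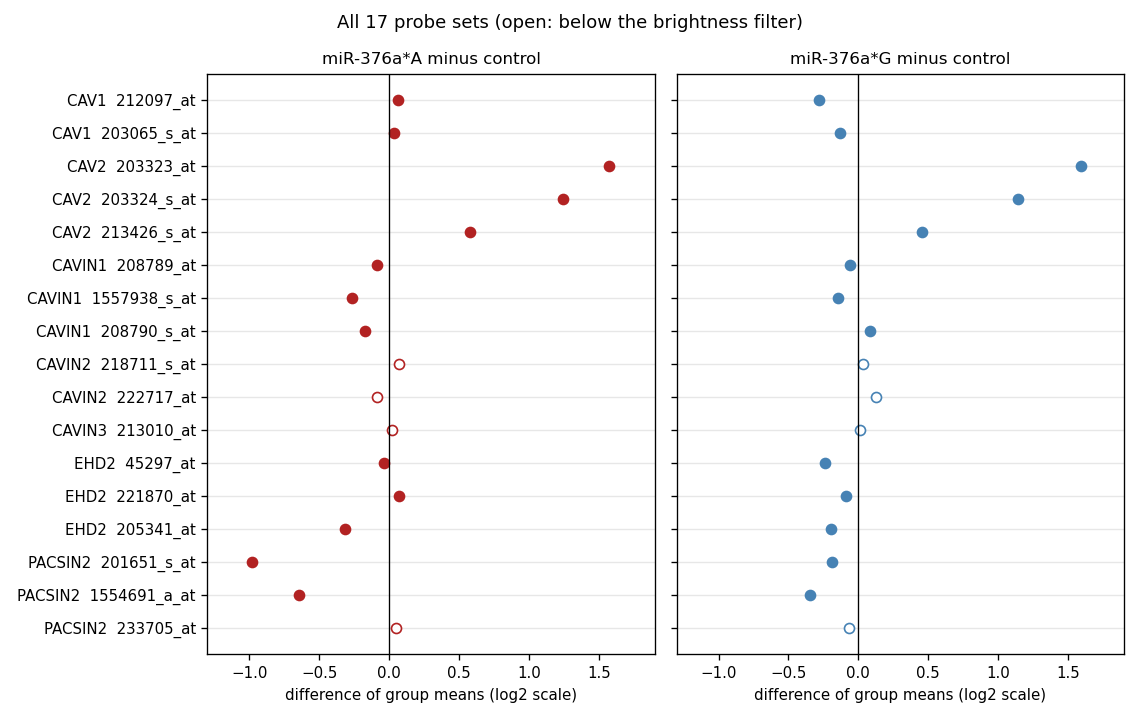
Difference of group means on the quantile-normalized log2 scale for all 17 probe sets of the 7 genes, miR-376a*A minus control on the left and miR-376a*G minus control on the right; open circles are probe sets below the brightness filter. The 3 CAV2 probe sets lie right of 0 in both panels (0.46 to 1.59), and the 2 brighter PACSIN2 probe sets lie at -0.98 and -0.64 in the left panel and at -0.19 and -0.34 in the right one.

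The genes that selected the set were left out of the counts in the comparison they were chosen for. For the A form against control 1 of the 4 other tested members passed, PACSIN2, lower, where 3.33% of all genes passed. For the G form against control 0 of the 4 others passed in limma, where 4.62% of all genes did. At an unadjusted p under 0.05 there was 1 of 4, CAV1, against 17.8% of all genes. CAV1, counted here against control, was chosen for a difference that uses the same arrays of the forms. Its values against control are thus not independent of that choice. Between the forms, with CAV1 left out, 1 of 4 passed, PACSIN2, lower with the A form, where 2.63% of all genes passed. CAV2, among those 4, was chosen for differences that use the same arrays of the forms, so its value there is not independent of that choice. A count of 1 among 4 genes says no more than the value of that gene. The median difference of all 5 members was -0.04, -0.19 and -0.01 in the 3 comparisons, against 0.01, 0.01 and 0.00 over all genes tested. These medians include CAV2 against control and CAV1 between the forms, which selected the set, so they support nothing about it. By probe set, 2 of 10 passed for the A form against control, both of PACSIN2 (background 2.49%), and 0 of 10 in limma for the G form against control (background 3.44%, with 3 of 10 and 16.9% of all probe sets at an unadjusted p under 0.05). Between the forms 1 of 11 passed, of PACSIN2 (background 1.84%). Without control replicate 1, when 13.4%, 17.0% and 9.72% of all genes passed in the 3 comparisons, PACSIN2 again passed with the A form against control and between the forms, and CAV1 was added, lower, with the G form.

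**Figure D4:**
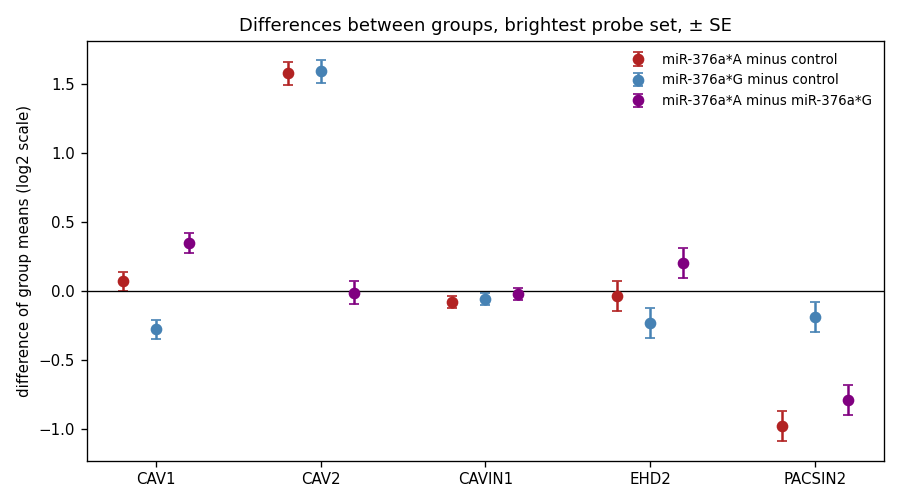
Difference of group means (quantile-normalized log2 scale, brightest probe set) with its standard error for the 5 tested genes, in the order miR-376a*A minus control, miR-376a*G minus control and miR-376a*A minus miR-376a*G. CAV2 stands at 1.58 and 1.59 against control and near 0 between the forms, PACSIN2 at -0.98 and -0.19 against control, and CAVIN1 within 0.1 of 0 throughout.

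**Figure D5:**
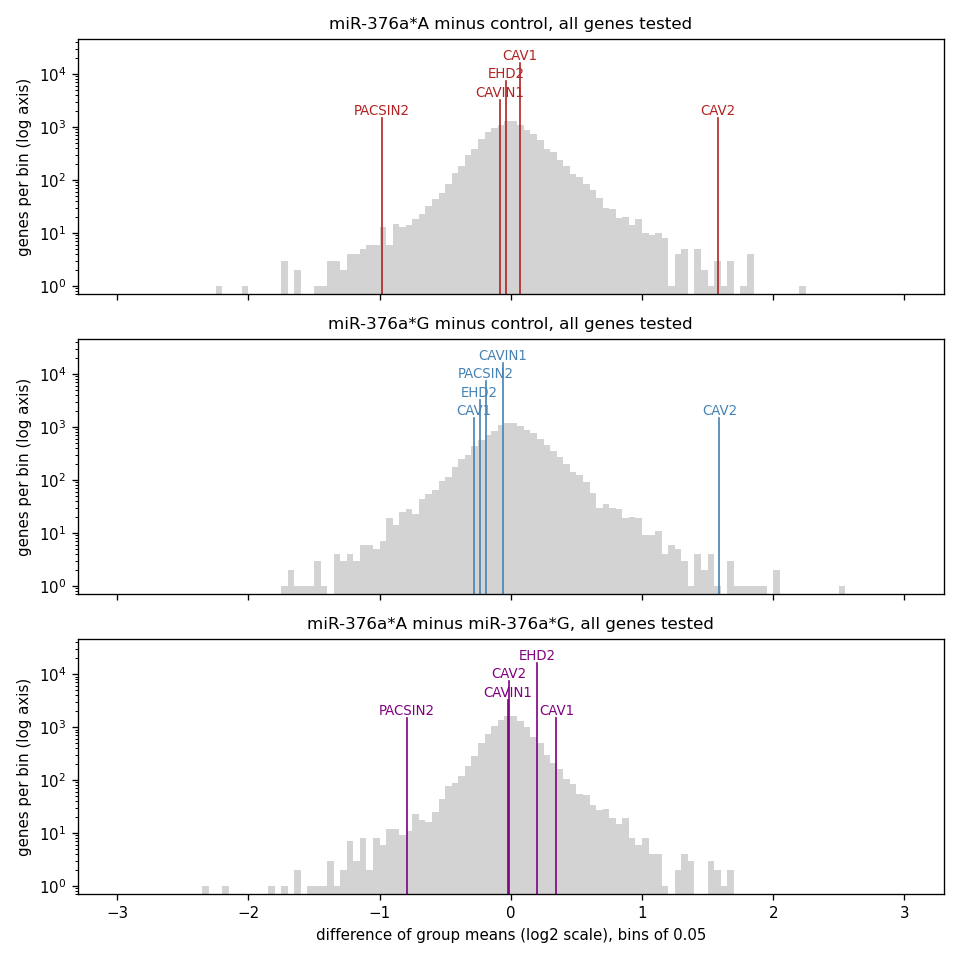
Number of genes per bin of 0.05 (log axis) by difference of group means (log2 scale) for the 12505 genes tested in each comparison, with the 5 tested members marked; the heights of the lines only keep the names apart. CAV2 lies in the upper tail of both comparisons with control and PACSIN2 in the lower tail of both comparisons that involve miR-376a*A, while CAVIN1 lies near the centre of all 3.

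Other genes of caveolae and of neighbouring endocytic routes were read from lists. Of 16 caveola partners and paralogs 10 were tested. With the A form 1 was lower than in control and 0 higher (background 1.38% lower and 1.95% higher), with the G form again 1 lower and 0 higher (2.12% and 2.50%), and between the forms 1 was higher and 1 lower (1.39% and 1.24%). The gene that was lower with the A form was DNM3, a dynamin, one of the GTPases that pinch vesicles from membranes. It had mean signals of 22.0 ± 1.86 with the A form and 52.3 ± 4.96 with the G form, against 58.9 ± 12.9 in control (SD, n = 3 each). It fell against control by 0.90 (SE 0.15, limma adjusted p = 0.00817) and differed from the G form by -0.83 (SE 0.15, limma adjusted p = 0.0143). Another DNM3 probe set gave 0.08 against control without passing, and the mean of both gave -0.41 with limma adjusted p = 0.215. Without A-form replicate 1 the fall against control had limma adjusted p = 0.0531. Over 19 alternatives that p ran from 8.47e-05 to 0.215, and the difference between the forms passed in 13 of 19. The gene that was lower with the G form was ROR1, a receptor reported to hold CAV1 and cavin-1 together, at -1.50 (SE 0.25, limma adjusted p = 0.00714). It was also the gene that was higher with the A form than with the G form, by 1.38 (SE 0.25, limma adjusted p = 0.0151), a call kept in 14 of 19 alternatives, while DNM3 was the lower one. The other ROR1 probe sets gave -1.59 and 0.09 with the G form against control. The median difference of the 10 genes was -0.08, -0.03 and -0.04 in the 3 comparisons. The paralogs EHD1, EHD3, EHD4 and PACSIN3 did not pass in any comparison with all arrays (limma adjusted p of 0.0841 to 0.996), though PACSIN3 was at 0.47 with the A form and 0.55 with the G form and passed, higher, without control replicate 1 (limma adjusted p of 0.0138 and 0.00574). EHD1, at 0.29 between the forms, also passed without that array (limma adjusted p = 0.0203). So did PRKCA, another listed gene, lower with the A form (-0.60, limma adjusted p = 0.00263) and with the G form (-0.54, limma adjusted p = 0.00411). With all arrays PRKCA was at -0.41 and -0.36 without passing (limma adjusted p of 0.252 and 0.274). SRC, a kinase that phosphorylates CAV1, had probe sets of opposite sign: the brighter one, which was counted, was at -0.22 with the A form and -0.19 with the G form without passing, while the dimmer one was higher, by 0.95 (limma adjusted p = 0.00676) and 1.23 (limma adjusted p = 0.00144). Over the whole list without control replicate 1, 1 was higher and 2 lower with the A form (background 6.95% and 6.41%), 1 higher and 2 lower with the G form (8.51% and 8.48%), and 2 higher and 1 lower between the forms (5.13% and 4.59%).

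In the other lists few genes passed. The flotillins FLOT1 and FLOT2, scaffold proteins of other membrane domains, had 0 of 2 past the threshold in limma in each comparison, and 0 at an unadjusted p under 0.05. Over all genes 3.33%, 4.62% and 2.63% passed the threshold in the 3 comparisons. Of 13 tested genes of the clathrin coat and its adaptors 0 passed in any comparison in limma with all arrays. At an unadjusted p under 0.05 there were 2 with the A form, 3 with the G form and 0 between the forms, against 14.9%, 17.8% and 10.7% of all genes, and their median difference was -0.05 with the A form, -0.14 with the G form and 0.07 between the forms. With control replicate 1 left out, when the background was 13.4%, 17.0% and 9.72%, 2 were higher and 1 lower with the A form, 3 were lower with the G form, and 1 was higher between the forms. Of 12 BAR-domain and GTPase genes of clathrin-independent routes 1 passed, ARHGAP26, a GTPase-activating protein with a BAR domain, lower with the G form than in control (background 2.12% lower). Its mean signals were 115 ± 9.19 with the A form and 75.1 ± 3.62 with the G form, against 149 ± 40.3 in control (SD, n = 3 each), and its difference with the G form was -0.82 (SE 0.15, limma adjusted p = 0.0132). The call held in 14 of 19 alternatives, and leaving out any G-form array ended it, with limma adjusted p of 0.0583 to 0.0682. It also passed, when control replicate 1 was left out, with the A form (-0.47, limma adjusted p = 0.00539) and between the forms (0.53, limma adjusted p = 0.00127). Of the 12 genes, 1 was then higher and 2 lower with the A form (background 6.95% higher and 6.41% lower). With the G form 1 was then higher and 1 lower (8.51% and 8.48%), and between the forms 1 was higher (5.13%). With all arrays the median of the 12 genes was -0.08 with the A form, -0.17 with the G form and 0.07 between the forms.

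The genes whose pattern over the arrays was most like that of the caveolins were taken by Pearson correlation of normalized log2 values, with no test. For CAV1 they were ACVR1 (r = 0.984 over 9 arrays), STON2 (r = 0.984), FZD5 (r = 0.984) and STK17A (r = 0.978), each lowest with the G form, with differences against control of -1.46, -0.69, -0.56 and -0.45. For CAV2 they were NUP37 (r = 0.991), SEC22C (r = 0.989), GLO1 (r = 0.987) and PTPN1 (r = 0.987), each higher with both forms, by 1.85, 1.78, 1.42 and 0.98 with the A form and 2.02, 1.81, 1.44 and 1.00 with the G form. These points share arrays and normalization, and the coefficients mostly follow the split between groups. Without control replicate 1, r was 0.980 to 0.988 for the CAV1 genes and 0.985 to 0.993 for the CAV2 genes over 8 arrays, but other genes ranked higher. Of these 8 genes, FZD5 alone was then still among the 4 most like its caveolin.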

How the data were processed

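The authors deposited linear signal intensities for 54675 probe sets on 9 arrays; the submitters' processing notes list GCOS 1.4.0.036 without its settings. Each array's mean after trimming 2% at each end was 100.0, so arrays had been scaled alike, and a change common to most transcripts would not be seen. Array medians of log2(signal + 16) ranged over 0.20, hence quantile normalization. The platform annotation gave 41097 probe sets 1 symbol, 1801 several and 11777 none; 41043 matched a RefSeq gene (GRCh38.p14). Probe sets with a mean below the 50th percentile (5.17, log2) were dropped, and the brightest stood for a gene.

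All 3 groups were fitted together in limma 3.58.1 (R 4.3.3; lmFit, eBayes with trend), with Benjamini-Hochberg adjustment over all genes, or over all 27338 probe sets, and a threshold of 0.05. The procedure was tested on simulated data. Exact tests of 3 against 3 arrays cannot go below p = 0.1. The labels call the arrays biological replicates without saying that cultures were separate, so p-values set each difference against the spread between these samples only.

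The members and lists were chosen with earlier results of these data known. Named genes are the members, list genes past the threshold (at most 4 per list and comparison) and the 4 genes most like CAV1 and CAV2. Same-numbered arrays of miR-376a*G and control deviated together (r of 0.125 to 0.187, all over 0.1) and were treated as paired in an alternative with the replicate number as a block. This did not hold for the other comparisons.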

Additional observations from a re-analysis of the deposited data

How the results depend on the processing

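The brightest probe set of PACSIN2 was lower with miR-376a*A, against control and against miR-376a*G, and passed under all 19 alternatives. The counts below include CAV2 against control and CAV1 between the forms, which selected the set, so their part in a count supports nothing. CAV1 against control and CAV2 between the forms share arrays with the differences that chose them and are not independent of that choice either. For miR-376a*A against control, the number of member probe sets past the threshold was 2 in place of 4 with only the 6 arrays compared, and 2 to 5 when 1 array was left out, with 2 when either miR-376a*A replicate 1 or 2 was missing. For miR-376a*G against control, 2 members in place of 1 passed with the mean of all probe sets of a gene and with array weights, CAV1 being the one added, and 1 to 2 when 1 array was left out; of its probe sets, 1 in place of 2 passed with only the 6 arrays compared, 4 with array weights, and 1 to 4 when 1 array was left out (4 without control replicate 1, and 1 without any of the miR-376a*G arrays). Between the forms, 1 member in place of 2 passed with median centring, without normalization and without the brightness filter, where CAV1 was lost, and 1 to 2 when 1 array was left out, with 1 for each of the 6 arrays of the forms. Of the probe sets, 1 in place of 2 passed with median centring, without normalization, without the filter, with the filter at the 25th percentile and with the replicate block, 4 with array weights, and 1 to 3 when 1 array was left out. The cause was not tested. With the replicate block the members past the threshold numbered 2, 1 and 2 in the 3 comparisons, as without it, and it changed no call of a member gene. Counts over all genes moved as well: for miR-376a*A against control 417 genes passed, 156 with only the 6 arrays compared, 2315 with array weights and 1670 without control replicate 1. For miR-376a*G against control 578 of 12505 passed, 654 with the mean of all probe sets and 204 with only the 6 arrays compared. With array weights 2427 passed there, and 2124 without control replicate 1. Between the forms 329 passed, 255 with median centring, 309 without normalization and 267 of 19775 without the filter. The replicate block gave 223 there and array weights 1656, and 1215 passed without control replicate 1. With 3 arrays per group and the widest spread among the controls, small differences such as those of EHD2 are given as intervals.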

Other observations

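CAV1 and CAV2 are neighbours on chromosome 7 in RefSeq. Among the protein-coding genes next to the pair, MET and CAPZA2 were tested and looked at after the values of the members had been seen. Both lie on the CAV1 side, while TES and TFEC, on the CAV2 side, were not among the genes tested. MET, a receptor tyrosine kinase, had mean signals of 1227 ± 47.2 with the A form and 1134 ± 25.9 with the G form, against 1292 ± 58.5 in control (SD, n = 3 each), with differences against control of -0.10 and -0.17 (limma adjusted p of 0.692 and 0.385). CAPZA2, an actin capping protein, was at 0.21 and 0.15 (limma adjusted p of 0.751 and 0.793), with a control SD of 320 signal units around a mean of 875. Neither passed with all arrays. Without control replicate 1, when 17.0% of all genes passed with the G form against control, MET was at -0.26 in that comparison (limma adjusted p = 0.0223).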
